A study of Mus musculus with 16 samples.

Results

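The genes described here are 8 metabolic targets of thyroid hormone: Ppargc1a, Cpt1a, Pdk4, Ucp2, Ucp3, Me1, Thrsp and Atp2a2. They were chosen by name, and each was read from the brightest probe set that the platform annotation gives to that symbol alone. Such a probe set was found for 7 of the 8 genes, 1 each, among 22180 named genes. The array level of Ucp2 was not analysed here. The floor for testing was a mean log2 level of 3.905, and 4 of the genes (Cpt1a, Pdk4, Me1 and Atp2a2) reached it, among 13453 genes tested. Ppargc1a, Ucp3 and Thrsp lay below it and are given as values only.

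RNA was measured on 16 Affymetrix arrays in cells of the mouse coronal suture, where the frontal bone meets the parietal bones. The question asked of these genes was which of them responded to thyroxine in suture cells, and whether the response differed by day in culture or by genotype. The groups were Twist1+/- cells with thyroxine, Twist1+/- cells in control medium, wild-type cells with thyroxine and wild-type cells in control medium, each after 3 and after 7 days. All cells came from 2 litters of C57BL6 background that mixed both genotypes. Their age is not given in the sources used. Thyroxine was added to Dulbecco's modified Eagle medium (DMEM) at -6 on a log10 scale of mol per liter, control cells had DMEM, and the cells had been grown with fetal bovine serum. Each of the 8 groups held 2 arrays, 1 of female and 1 of male cells, so that there were 4 cultures and 8 pairs of a thyroxine and a control array. A genotype was therefore represented by 1 culture of each sex, and the p-values below measure the spread between arrays, which may be technical in part. Their number limits the precision.

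Thyroid hormone acts through nuclear receptors that bind response elements near target genes, and thyroxine is converted in cells to triiodothyronine, the form that binds these receptors best. In liver, heart and skeletal muscle the hormone raises genes of fatty acid burning, fat synthesis, uncoupling and calcium pumping, which together raise energy use.

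The cells carried the RNA of mesenchyme: all 10 suture mesenchyme markers were above the floor, with a mean log2 level of 9.66 to 10.77 over the arrays. Osteoblast, adipocyte and skeletal muscle markers were present in part. Of the osteoblast markers 1 of 4 reached the floor, Alpl at a mean of 5.25, while Sp7, Ibsp and Bglap lay below it. Of the adipocyte markers 4 of 7 reached it, led by Pnpla2 and Fabp4 at 7.44 and 5.22, while Adipoq, Cidec and Lep lay below. Of the skeletal muscle markers 7 of 10 reached it, led by Acta1, Tnnc2 and Myog at 6.97, 5.33 and 5.22, while Myh3, Myh8 and Actn2 lay below. All 15 macrophage and osteoclast markers reached the floor, with a mean log2 level of 7.65 to 9.61 over the arrays. They were led by Lyz2, C1qb and Cd68 at 12.35, 11.16 and 10.65, and the lowest was Acp5 at 5.39. The 4 wild-type male arrays stood apart on the first principal component, which held 30.1% of the variance, at 26.7 to 31.1 against -20.8 to 1.95 for the other 12 arrays. Twist1 RNA overlapped between genotypes, at 7.14 ± 0.35 in Twist1+/- and 6.82 ± 0.64 in wild-type arrays (SD, n = 8 each). Where its probes lie relative to the mutated part of the gene is not stated in the labels, so this level does not check the labels. In arrays of whole cultures, fewer cells of a type and less RNA per cell cannot be told apart.

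Klf9, a zinc finger factor that the hormone is known to induce in brain, rose with thyroxine in these cells. It was higher with thyroxine in 8 of 8 pairs, by 0.56 ± 0.060 (log2 difference ± SE, adjusted p = 0.00458 in the limma fit). The call was lost without the pair of wild-type female cells at 3 days (limma adjusted p = 0.0829), without the wild-type male culture (0.0822) and without the Twist1+/- arrays at 7 days (0.0931), with differences of 0.564, 0.506 and 0.498. Hr, a corepressor gene induced by the hormone in brain and skin, was higher in 8 of 8 pairs as well, by 0.37 ± 0.094, and did not pass the threshold (adjusted p = 0.385). The metabolic genes are read beside these differences.

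The sequences before 3 of the metabolic genes are shown because they hold letters of a thyroid hormone receptor site. They are RefSeq windows on GRCm38.p6, from 250 bases before to 50 bases after the transcript start, printed 5′ to 3′ along the gene. The motif searched was AGGTCA, the receptor half-site, on both strands, where it reads TGACCT on the opposite one. It occurred in 5340 of 32851 windows, or 16.3%, and in 2 of the 8 windows of 7 of these genes, those of Ucp3 and Cpt1a. Atp2a2 had no window in the table. The direct repeat of AGGTCA with a spacing of 4 bases, the classic positive element, occurred in 5 windows, or 0.0152%, and in no window of these genes. A looser repeat, GGGTTA and AGGACA with a spacing of 4, is the arrangement known from the rat malic enzyme gene. It was chosen after the Me1 window had been read, so its presence there was fixed by the choice, and its share of all windows (1 window, or 0.00304%) bears on no result. Half-site letters of Ucp3 and Cpt1a, and the whole repeat of Me1, are in capitals.
Me1, chr9:86695865-86696164, minus strand, repeat starting at position -152: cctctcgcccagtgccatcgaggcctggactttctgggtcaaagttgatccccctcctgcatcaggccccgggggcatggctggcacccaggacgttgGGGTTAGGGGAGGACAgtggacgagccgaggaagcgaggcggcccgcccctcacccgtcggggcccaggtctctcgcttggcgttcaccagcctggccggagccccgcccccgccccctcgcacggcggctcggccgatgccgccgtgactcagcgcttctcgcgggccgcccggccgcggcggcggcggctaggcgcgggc
Cpt1a, chr19:3323051-3323350, plus strand, half-site on the opposite strand at position -94: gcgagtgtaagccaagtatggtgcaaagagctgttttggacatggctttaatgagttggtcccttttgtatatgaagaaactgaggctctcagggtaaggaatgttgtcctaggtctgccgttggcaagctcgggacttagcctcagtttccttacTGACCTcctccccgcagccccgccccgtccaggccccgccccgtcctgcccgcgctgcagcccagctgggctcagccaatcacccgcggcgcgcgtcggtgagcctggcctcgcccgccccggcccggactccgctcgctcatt
Ucp3, chr7:100472741-100473040, plus strand, half-sites at positions -149 and -44: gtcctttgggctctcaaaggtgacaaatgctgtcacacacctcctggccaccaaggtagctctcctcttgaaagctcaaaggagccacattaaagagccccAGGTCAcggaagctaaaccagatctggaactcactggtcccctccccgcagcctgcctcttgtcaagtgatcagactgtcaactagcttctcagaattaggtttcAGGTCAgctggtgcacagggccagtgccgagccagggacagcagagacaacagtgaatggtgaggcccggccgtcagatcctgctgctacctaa
These letters are a description of the windows. The Me1 and Cpt1a windows belong to genes with clear signal on every array, and the Ucp3 window, with 2 half-sites, to a gene below the floor on every array.

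None of the 4 tested metabolic genes changed with thyroxine over all pairs. In the limma fit 0 of 4 were called at an adjusted p under 0.05. An unadjusted p under 0.05 was found for 0 of 4, against 6.13% of all genes tested. Of all genes tested, 0.0966% were called, 11 higher and 2 lower, so that 0 of 4 lies near this background. Across the 4 genes the 95% bounds ran from -0.154 to 0.203 on the log2 scale, and the lower bound for Klf9 was 0.43. A pooled difference as large as that of Klf9 lay outside the interval of each of the 4 genes.

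**Figure D1:**
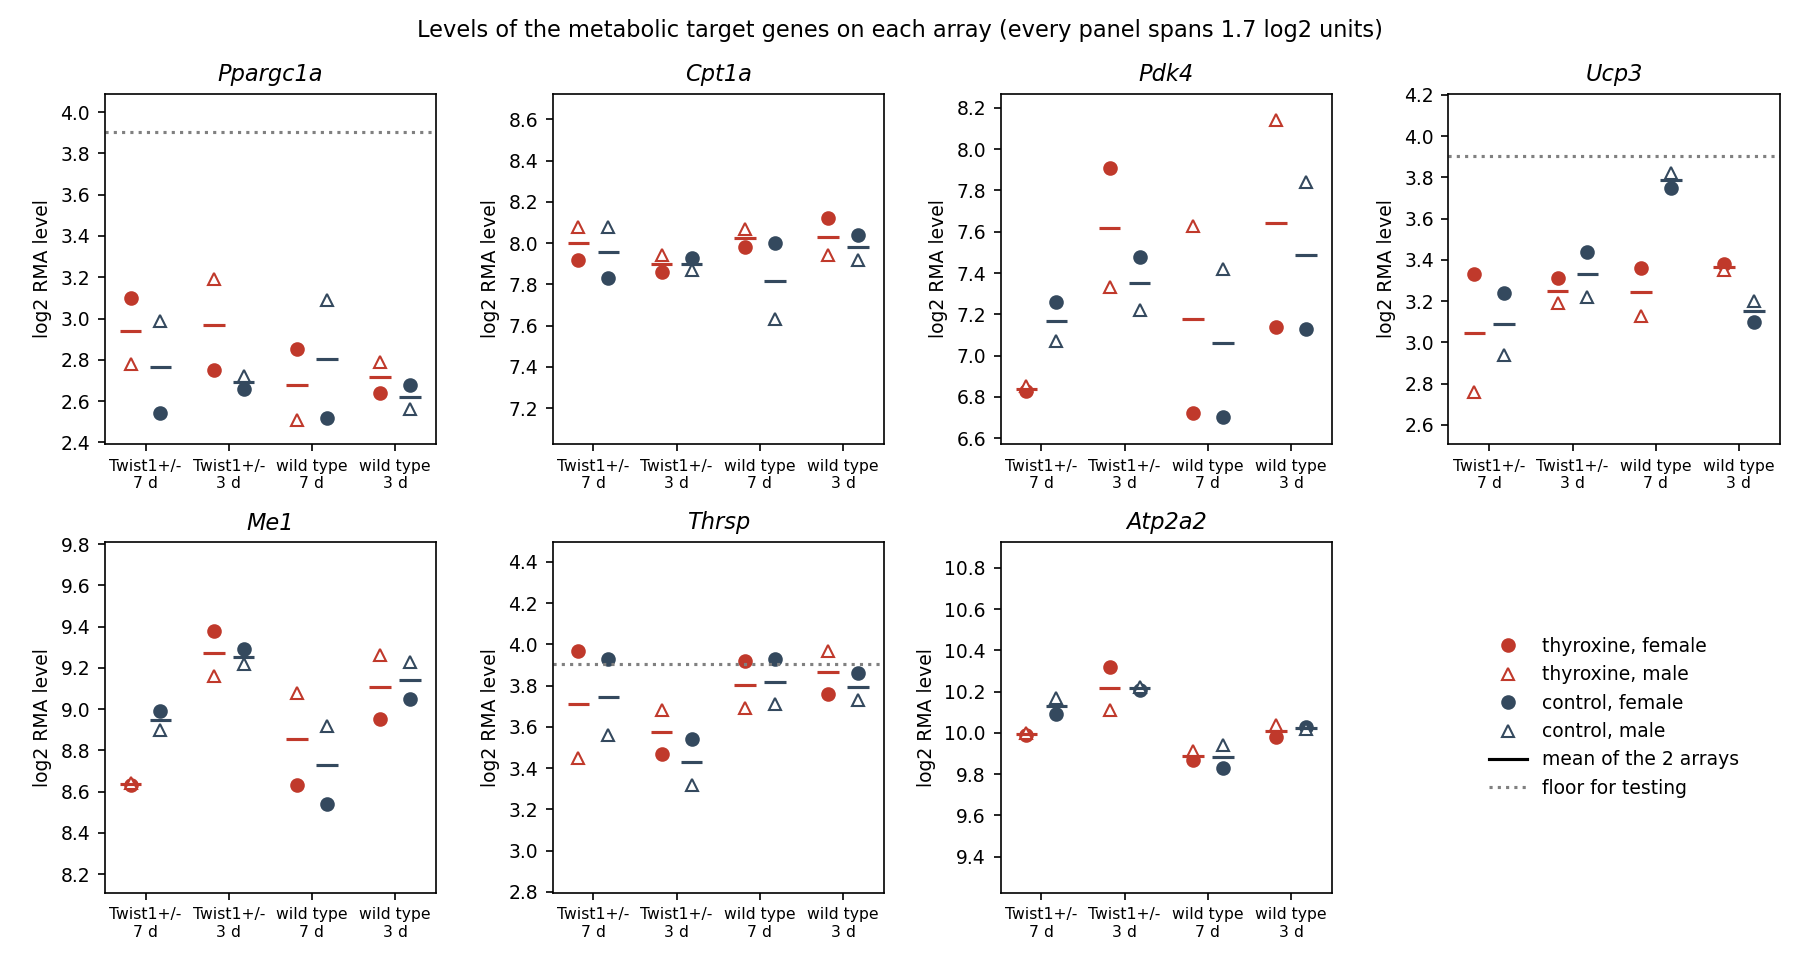
Log2 RMA level (y axis) of each of the 7 genes on all 16 arrays, by genotype and day (x axis), with thyroxine left of control in each pair of columns, circles for female and triangles for male cells, short lines for the mean of 2 arrays and a dotted line for the floor of 3.905. Me1 and Pdk4 were lower with thyroxine in both Twist1+/- pairs at 7 days, Cpt1a and Atp2a2 were close to flat, and Ppargc1a and Ucp3 stayed below the floor on every array.

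Cpt1a encodes the liver form of carnitine palmitoyltransferase 1, which commits long-chain fatty acids to entry into mitochondria. Its level ran from 7.63 to 8.12 over the 16 arrays. At 3 days it was 7.86 and 7.94 in female and male Twist1+/- cells with thyroxine, against 7.93 and 7.87 in control medium. At 3 days wild-type cells had 8.12 and 7.94 with thyroxine, against 8.04 and 7.92 in control medium. The media overlapped in both genotypes. At 7 days Twist1+/- cells had 7.92 and 8.08 with thyroxine, against 7.83 and 8.08 in control medium. Wild-type cells at 7 days had 7.98 and 8.07 with thyroxine, against 8.00 and 7.63 in control medium. In 7 of the 8 pairs the difference was at most 0.1 in size, and the exception was the wild-type male pair at 7 days, at 0.44. The control array of that pair was the lowest of all 16. Over all pairs Cpt1a averaged 7.99 ± 0.091 with thyroxine and 7.91 ± 0.14 in control medium (SD, n = 8 each), a difference of 0.076 ± 0.059 (SE) with a limma adjusted p of 0.882. Without the wild-type male pair at 7 days the difference was 0.019.

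Pdk4 encodes pyruvate dehydrogenase kinase 4, which switches off the entry of pyruvate into the citric acid cycle and spares glucose when fat is burned. Its level ran from 6.70 to 8.14, the widest range of the 4 tested genes. In Twist1+/- cells at 3 days it was 7.91 and 7.33 (female and male) with thyroxine, against 7.48 and 7.22 in control medium. In Twist1+/- cells at 7 days it was 6.83 and 6.85 with thyroxine, against 7.26 and 7.07 in control medium. So both 3-day pairs were higher with thyroxine, by 0.43 and 0.11, and both 7-day pairs were lower, with differences of -0.43 and -0.22. In wild-type cells at 3 days Pdk4 was 7.14 and 8.14 with thyroxine, against 7.13 and 7.84 in control medium. In wild-type cells at 7 days it was 6.72 and 7.63 with thyroxine, against 6.70 and 7.42 in control medium. All 4 wild-type pairs were higher with thyroxine, by 0.01 to 0.30, while the sexes lay much further apart than the media. Over all pairs the difference was 0.054 ± 0.063 (limma adjusted p = 0.918), between 7.32 ± 0.53 with thyroxine and 7.26 ± 0.33 in control medium (SD, n = 8 each). Without the wild-type male culture the pooled value was -0.006.

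Me1 encodes the cytosolic malic enzyme, which supplies NADPH for fat synthesis and is a classic hormone-responsive enzyme of rat liver. In Twist1+/- cells at 7 days it was 8.63 and 8.64 (female and male) with thyroxine, against 8.99 and 8.90 in control medium, so that the media did not overlap and the pairs differed by -0.36 and -0.26. In Twist1+/- cells at 3 days it was 9.38 and 9.16 with thyroxine, against 9.29 and 9.22 in control medium, where the media overlapped. Of this genotype, the 7-day arrays alone were apart. Wild-type cells at 7 days had 8.63 and 9.08 with thyroxine, against 8.54 and 8.92 in control medium, higher in both pairs by 0.09 and 0.16. Wild-type cells at 3 days had 8.95 and 9.26 with thyroxine, against 9.05 and 9.23 in control medium. Those pairs split, at -0.10 and 0.03. Over all pairs the values cancelled, at 8.97 ± 0.30 with thyroxine and 9.02 ± 0.24 in control medium (SD, n = 8 each), and the difference was -0.051 ± 0.048 (limma adjusted p = 0.906). Leaving out the Twist1+/- arrays at 7 days turned this to 0.035.

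Atp2a2 encodes SERCA2, the calcium pump of the endoplasmic reticulum, whose cardiac form the hormone raises in the heart of rodents. Its 8 pair differences ran from -0.17 to 0.11, the narrowest range of the 4 tested genes, with 5 of 8 lower. Twist1+/- cells at 7 days had 9.99 and 10.00 (female and male) with thyroxine, against 10.09 and 10.17 in control medium, without overlap. Twist1+/- cells at 3 days had 10.32 and 10.11 with thyroxine, against 10.21 and 10.22 in control medium. Those arrays overlapped. In wild-type cells the 4 pair differences lay between -0.05 and 0.04. Over all pairs Atp2a2 averaged 10.03 ± 0.14 with thyroxine and 10.06 ± 0.14 in control medium (SD, n = 8 each), a difference of -0.036 ± 0.047 (limma adjusted p = 0.931).

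The genes below the floor gave no steady direction. Ppargc1a encodes PGC-1α, the coactivator that drives mitochondrial biogenesis. It ran from 2.51 to 3.19 with thyroxine, against 2.52 to 3.09 in control medium, and 5 of 8 pairs were higher. Ucp3 encodes the uncoupling protein of skeletal muscle mitochondria, which the hormone raises strongly in that tissue. With thyroxine it lay at 2.76 to 3.38, against 2.94 to 3.82 in control medium, and 3 of 8 pairs were higher. Its wild-type pairs at 7 days had differences of -0.39 and -0.69, and those at 3 days 0.28 and 0.15. Thrsp encodes Spot 14, a nuclear protein of fat-forming cells named for its quick response to the hormone in rat liver. It lay at 3.45 to 3.97 with thyroxine, against 3.32 to 3.93 in control medium. On 5 of 16 arrays it was at or above the floor, and 3 of 8 pairs were higher. Values this close to background are compressed, so a change in these 3 genes may not have been detectable.

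**Figure D2:**
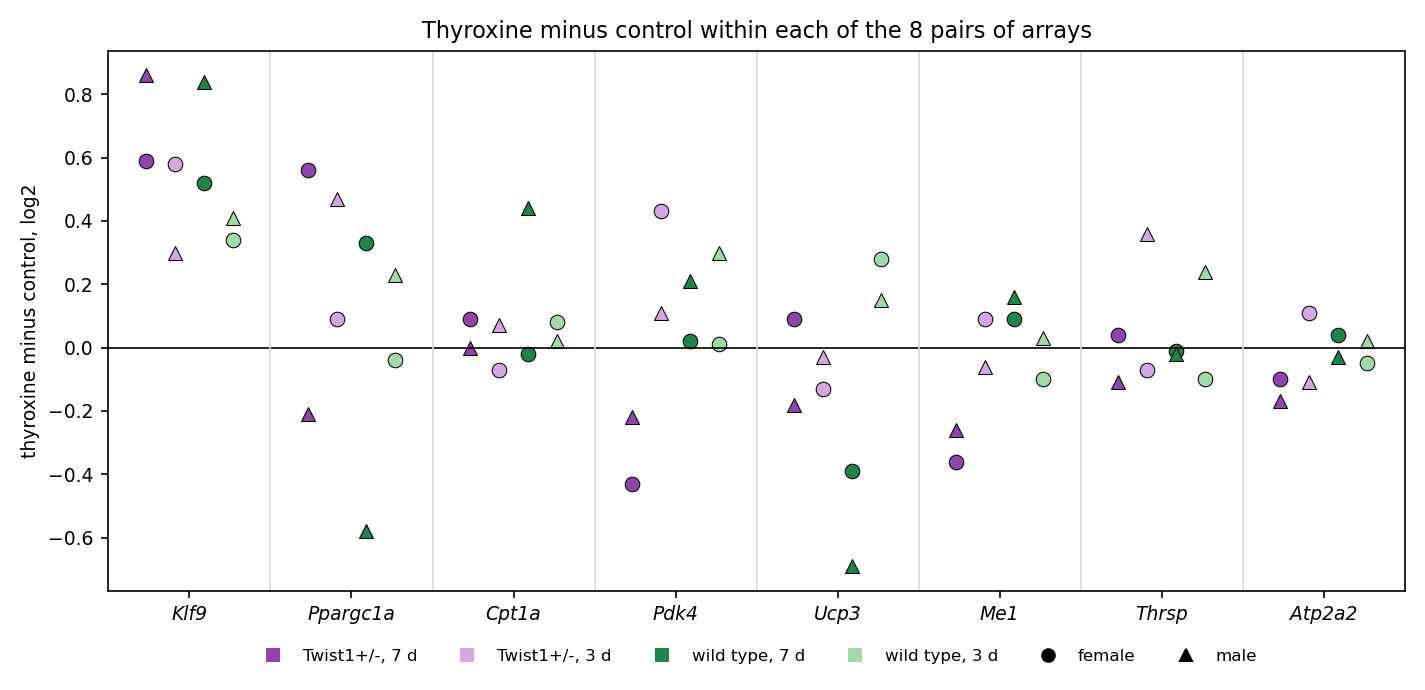
Thyroxine minus control on the log2 scale (y axis) within each of the 8 pairs for Klf9 and the 7 genes (x axis), coloured by genotype and day, circles for female and triangles for male cells. Klf9 lay above 0 in 8 of 8 pairs, from 0.30 to 0.86, whereas each of the other genes had pairs on both sides of 0.

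By day, the response of the 4 genes could not be told from 0. At 3 days the limma fit called none of them and none of the 13453 genes (0%). An unadjusted p under 0.05 was found for 1 of the 4, Pdk4, against 3.05% of all genes. Pdk4 averaged 7.63 ± 0.47 with thyroxine and 7.42 ± 0.32 in control medium at 3 days (SD, n = 4 each), higher in 4 of 4 pairs by 0.21 ± 0.089 (limma adjusted p = 0.999). Klf9 too was not called at 3 days (limma adjusted p = 0.889), though higher in 4 of 4 pairs by 0.408 ± 0.084. A missing call at 3 days therefore does not show that a gene failed to respond. At 7 days Klf9 was called (limma adjusted p = 0.00545). At 7 days none of the 4 was called, against 0.156% of all genes. Unadjusted, 0 of the 4 had a p under 0.05, against 8.92% of all genes. The change of the response between days was largest for Pdk4, which was -0.105 at 7 days and 0.21 at 3 days. The difference of -0.32 ± 0.126 did not pass (limma adjusted p = 0.896), and in wild-type cells alone it was -0.04. For that comparison 0.00743% of genes were called, none of the 4 among them. Of the 4, 1 had an unadjusted p under 0.05, against 5.38% of all genes.

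By genotype, the 4 genes again passed no test. In Twist1+/- pairs 0 of 4 were called against 0.201% of all genes. An unadjusted p under 0.05 was found for 1 of the 4, Me1, against 10.4% of all genes. Me1 averaged 8.95 ± 0.38 with thyroxine and 9.10 ± 0.18 in control medium there (SD, n = 4 each), lower in 3 of 4 pairs with a fitted difference of -0.148 ± 0.068 (limma adjusted p = 0.478). In wild-type pairs 0 of 4 were called against 0.0149% of all genes, and 0 had an unadjusted p under 0.05, against 5.59%. The test of the genotype difference called 0 of 4, against 0.0595% of all genes. Unadjusted, 0 of 4 had a p under 0.05, against 9.53%. All 4 fitted differences were below 0, with a median of -0.135, beside a median of -0.032 over all genes tested. Klf9 was called in Twist1+/- pairs (limma adjusted p = 0.00979). In wild-type pairs it was not (limma adjusted p = 0.105), though higher in 4 of 4 by 0.528 ± 0.084. A missing call in wild-type pairs thus does not show an absent response.

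Twist1+/- cells at 7 days were tested on their own after these pairs had been seen. Me1, Pdk4 and Atp2a2 were lower with thyroxine in both pairs, and Cpt1a was higher in 1 pair and equal in the other. The fitted differences were -0.31 ± 0.096 for Me1 (limma adjusted p = 0.134) and -0.325 ± 0.126 for Pdk4 (limma adjusted p = 0.221). For Atp2a2 the value was -0.135 ± 0.095 (limma adjusted p = 0.505). None of the 4 was called, against 0.766% of all genes. Unadjusted, 2 of the 4 had a p under 0.05, against 16.5% of all genes. Over all genes tested the median difference was -0.060 in these pairs. Set against wild-type cells at 7 days, the response of Me1 differed by -0.435 ± 0.135 (limma adjusted p = 0.230) and that of Pdk4 by -0.44 ± 0.178 (limma adjusted p = 0.329). There 0.186% of genes were called, 0 of the 4 among them. An unadjusted p under 0.05 was found for 2 of the 4 and for 12.7% of all genes. Set against Twist1+/- cells at 3 days, Pdk4 differed by -0.595 ± 0.178 (limma adjusted p = 0.446) and Me1 by -0.325 ± 0.135 (limma adjusted p = 0.564). In that comparison 0.119% of genes were called, again 0 of the 4. Unadjusted, 2 of the 4 and 8.53% of all genes had a p under 0.05.

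**Figure D3:**
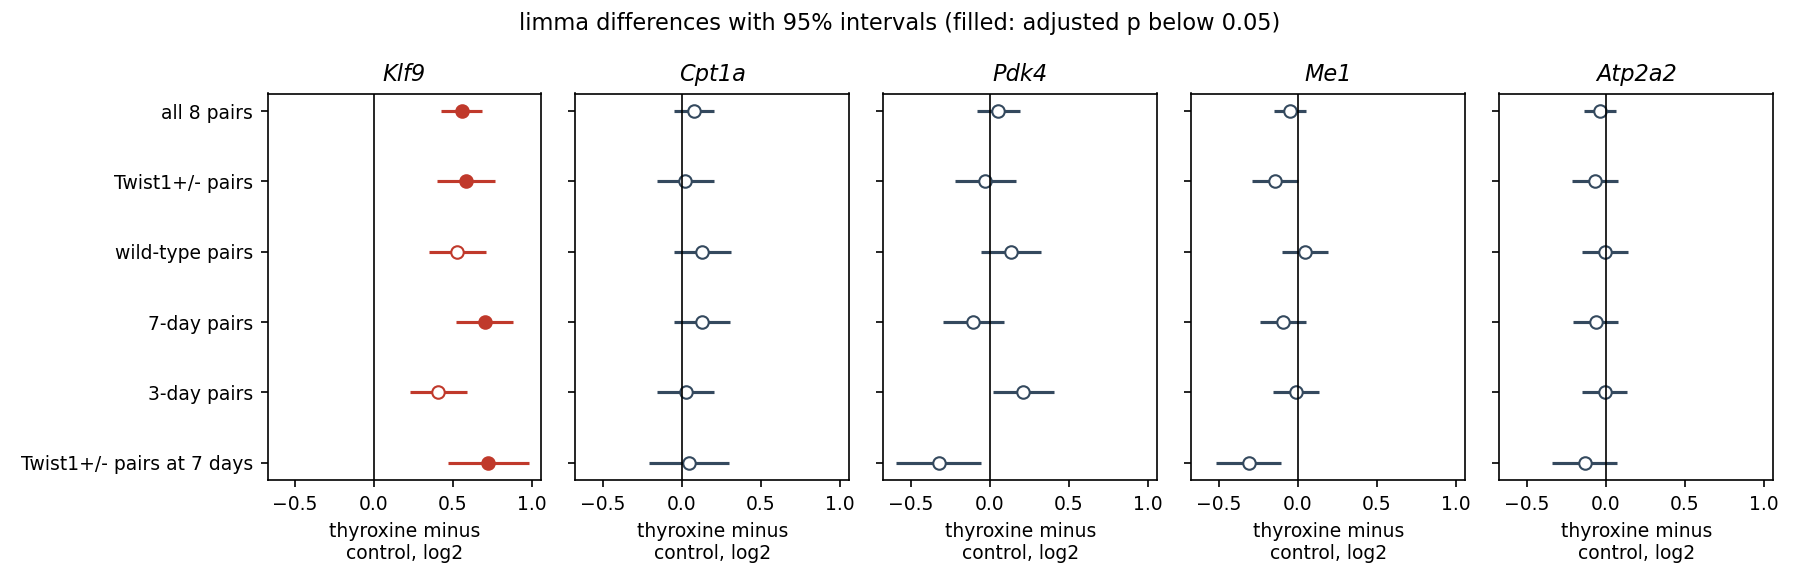
Thyroxine minus control with 95% limma intervals on the log2 scale (x axis) for Klf9 and the 4 tested genes, in 6 sets of pairs (y axis), with filled points at an adjusted p under 0.05. Points for Cpt1a, Pdk4, Me1 and Atp2a2 are all open, and the Me1 and Pdk4 intervals in Twist1+/- pairs at 7 days lie below 0 before adjustment.

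Time in culture was the contrast with a call, and the gene was Me1, which fell by day 7 in control medium. In Twist1+/- cells it was 8.99 and 8.90 (female and male) at 7 days, against 9.29 and 9.22 at 3 days. In wild-type cells it was 8.54 and 8.92 at 7 days, against 9.05 and 9.23 at 3 days. The days did not overlap, and all 4 cultures were lower at 7 days. The means were 8.84 ± 0.20 at 7 days and 9.20 ± 0.10 at 3 days (SD, n = 4 each), a difference of -0.36 ± 0.096 with a limma adjusted p of 0.0390. Of all genes tested 7.96% were called for day, 2.47% as lower, beside 1 of the 4 genes here, so the count itself is no result about these genes. The call was lost when any 1 of the 8 control arrays was left out (limma adjusted p of 0.0566 to 0.197), while the difference then stayed between -0.407 and -0.313. Without the Twist1+/- arrays at 7 days the contrast held the wild-type cultures alone and gave -0.41 (limma adjusted p = 0.486). The thyroxine arrays came from the same 4 cultures and entered the fit's estimate of spread, while the contrast compared control arrays only. They also had lower Me1 at 7 days in all 4 cultures, with differences of -0.75 and -0.52 in Twist1+/- cells. In wild-type cells the differences were -0.32 and -0.18. Among the thyroxine arrays the days overlapped.

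The other genes were not called for day. Pdk4 was lower at 7 days in 4 of 4 control cultures, at 7.11 ± 0.31 against 7.42 ± 0.32 at 3 days (SD, n = 4 each), with a difference of -0.305 ± 0.185 (limma adjusted p = 0.375). With thyroxine it was lower at 7 days in 4 of 4 cultures too, with differences of -1.08 and -0.48 in Twist1+/- and -0.42 and -0.51 in wild-type cells. Atp2a2 was lower in all 8 culture and medium pairs of days, with a difference of -0.112 ± 0.073 in control medium (limma adjusted p = 0.411). Cpt1a had no common direction, at -0.055 ± 0.095 (limma adjusted p = 0.804).

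Fat synthesis, which draws on the NADPH that Me1 makes, had called genes for day as well. The counts of the lists that follow stand against the 7.96% of all genes called for day, and nothing particular to a list is read from them. In the list of fatty acid synthesis and NADPH genes, 2 of 12 tested genes were called lower at 7 days and 0 higher, with a median of -0.229 beside -0.008 over all genes. Fasn, the fatty acid synthase, was 8.34 ± 0.25 at 7 days and 8.99 ± 0.14 at 3 days (SD, n = 4 each), a difference of -0.652 ± 0.141 (limma adjusted p = 0.0153). Acly, which makes the acetyl-CoA for that synthesis, was 8.75 ± 0.081 at 7 days and 9.26 ± 0.29 at 3 days, a difference of -0.51 ± 0.127 (limma adjusted p = 0.0295). Among fatty acid oxidation genes 1 of 19 was called. Acadm, the medium-chain acyl-CoA dehydrogenase, rose to 7.75 ± 0.13 at 7 days, against 7.42 ± 0.053 at 3 days, by 0.335 ± 0.082 (limma adjusted p = 0.0268). In the calcium store list, 1 of 8 was called in each direction. The pump Atp2a3, a paralog of Atp2a2 found in blood cells, was higher at 7 days by 0.81 ± 0.194 (limma adjusted p = 0.0246), and the calcium release channel Itpr3 was lower, with a difference of -0.565 ± 0.151 (limma adjusted p = 0.0390). These calls depended on single arrays and on settings. Leaving out 1 array at a time, Fasn, Acly and Itpr3 kept the call only without a wild-type male array of either day, and Acadm only without the wild-type male array at 7 days. Atp2a3 kept it without either wild-type male array and without the Twist1+/- male array at 7 days. The limma adjusted p otherwise reached 0.103 for Fasn, 0.164 for Acly, 0.161 for Acadm, 0.133 for Atp2a3 and 0.208 for Itpr3, with every direction as above. Acadm, Acly and Itpr3 also lost the call with no floor (0.0686, 0.0554 and 0.0742) and with no random block for the culture (0.0570, 0.0563 and 0.0768). Without the Twist1+/- arrays at 7 days the contrast held the wild-type cultures alone. All 5 then lost the call, at a limma adjusted p of 0.460 to 0.637.

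Most macrophage and osteoclast markers rose with day. Of the 15 tested, 12 were called higher at 7 days in control medium and 0 lower, with a median of 1.29. By direction 13 were higher and 2 lower. Acp5, an osteoclast marker, was among the lower, at 5.27 ± 0.33 at 7 days against 5.465 ± 0.39 at 3 days (SD, n = 4 each). The mean level of the 15 markers ran from 9.42 to 9.61 at 7 days, against 7.85 to 9.32 at 3 days. In Twist1+/- female, Twist1+/- male and wild-type female control cultures that mean was 1.58, 1.29 and 1.34 higher at 7 days, and in the wild-type male culture 0.29 higher. In that last culture Me1 differed by -0.31, within the range of the other 3 cultures, whereas Fasn there differed by -0.15, Acly by 0.02 and Itpr3 by -0.07. Acadm there differed by 0.20, the smallest of the 4 cultures, and Atp2a3 by 0.43, within the range of the others. With thyroxine the wild-type male culture had the smallest marker difference, 0.06, and also the smallest Me1 difference, -0.18, against -0.32 to -0.75 in the other 3 cultures. The part of the markers in the results for Me1, Fasn, Acly, Acadm, Atp2a3 and Itpr3 was not tested. For thyroxine over all pairs the markers had 0 of 15 calls and a median of -0.035.

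**Figure D4:**
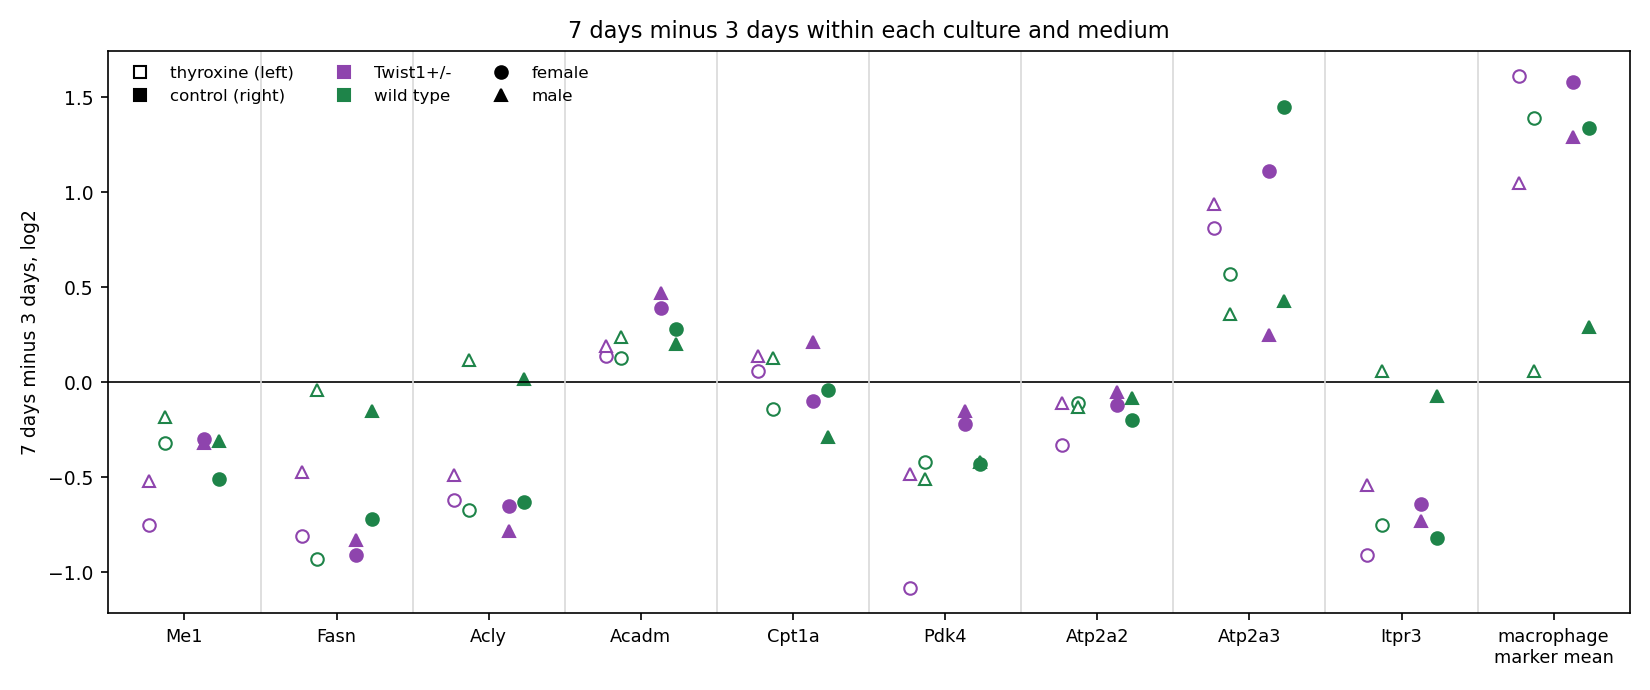
The difference between 7 and 3 days on the log2 scale (y axis) within each culture, with thyroxine (open, left) and control medium (filled, right). The x axis holds 4 metabolic genes, the called genes of the pathway lists and the mean of 15 macrophage and osteoclast markers. Me1, Pdk4 and Atp2a2 were below 0 in all 8 comparisons of days. In both media the wild-type male culture (green triangles) lay closer to 0 than the other cultures for Fasn, Acly, Itpr3 and the marker mean.

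Between genotypes in control medium no gene was called. The limma fit called 0 of the 4 genes and 0% of all genes. An unadjusted p under 0.05 was found for 1 of the 4, Atp2a2, against 4.75% of all genes. Atp2a2 was 10.09 to 10.22 in Twist1+/- and 9.83 to 10.03 in wild-type control arrays, without overlap. It averaged 10.17 ± 0.059 in Twist1+/- and 9.96 ± 0.093 in wild-type arrays (SD, n = 4 each). The difference was 0.218 ± 0.089 (limma adjusted p = 0.889), from 2 cultures against 2. Cell type markers also differed in level between the genotypes, with 0 called in limma at an adjusted p under 0.05. Unadjusted, 1 mesenchyme and 0 macrophage and osteoclast markers were under 0.05. Macrophage and osteoclast markers were lower in Twist1+/- cells for 13 of 15 (median -0.55) and mesenchyme markers higher for 9 of 10 (median 0.368). Over both media and days the mesenchyme mean was 9.71 in wild-type male cells. It was 10.72 in wild-type female cells, above the 10.46 and 10.7 of female and male Twist1+/- cells. The macrophage and osteoclast mean was 9.39 in wild-type male cells. In wild-type female cells it was 8.82, between the 8.54 and 8.96 of female and male Twist1+/- cells. The part of these markers in the Atp2a2 difference was not tested. Me1 differed by 0.165 ± 0.118 (limma adjusted p = 0.895), or by 0.351 without the wild-type male culture, and Cpt1a by 0.030 ± 0.117 (limma adjusted p = 0.979). Pdk4 gave -0.015 ± 0.227 (limma adjusted p = 0.996) with all cultures and 0.469 without the wild-type male culture (limma adjusted p = 0.162). That culture had the highest Pdk4 of all, at 7.42 to 8.14, against 6.70 to 7.14 in the wild-type female culture.

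The wider pathways gave no call for thyroxine over all pairs. For the PGC-1 and PPAR regulators 0 of 15 tested genes were called, with a median of 0.034 beside -0.016 over all genes. Sirt1, a deacetylase that acts on PGC-1α, was higher in 6 of 8 pairs by 0.176 ± 0.082 (limma adjusted p = 0.813), and Tfb2m, a mitochondrial transcription factor, differed by -0.078 ± 0.076 (limma adjusted p = 0.907). Of the fatty acid oxidation genes 0 of 19 were called, with a median of -0.010. Cpt2, which takes over from Cpt1a inside the mitochondrion, differed by 0.062 ± 0.052 (limma adjusted p = 0.896), and Etfa, an electron carrier subunit, by -0.136 ± 0.068 (limma adjusted p = 0.824). Of the pyruvate dehydrogenase and glycolysis genes 0 of 14 were called, with a median of -0.053.

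Within that last list, Slc2a1, the glucose transporter GLUT1, was lower in 8 of 8 pairs. It averaged 9.71 ± 0.22 with thyroxine and 9.89 ± 0.26 in control medium (SD, n = 8 each), with a difference of -0.181 ± 0.056 that did not pass (limma adjusted p = 0.628). With the mean of its probe sets in place of the brightest the difference was -0.016, and without the wild-type male culture it was -0.112. Pdk2, a paralog of Pdk4, differed by 0.120 ± 0.061 (limma adjusted p = 0.829). In Twist1+/- pairs at 7 days, where 0.766% of all genes were called, 1 of the 14 genes was called: Mpc1, a subunit of the mitochondrial pyruvate carrier, was 8.99 and 8.92 with thyroxine, against 8.68 and 7.89 in control medium. Its difference was 0.67 ± 0.140 (limma adjusted p = 0.0466), and the 2 pairs were unequal, at 0.31 and 1.03. Without the male pair, which had the larger difference, the value was 0.31 and the call was lost (limma adjusted p = 0.647), as it was without any 1 of the 4 wild-type pairs (0.0566 to 0.106). In the 4 wild-type pairs the Mpc1 differences ran from -0.38 to -0.08.

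Of the fatty acid synthesis and NADPH genes 0 of 12 were called for thyroxine, with a median of 0.002. Elovl6, a fatty acid elongase, differed by 0.041 ± 0.061 (limma adjusted p = 0.937) and Fasn by -0.092 ± 0.052 (limma adjusted p = 0.836). Mitochondrial carriers related to the uncoupling proteins had 0 of 3 calls. Slc25a30, one of them, was higher in 7 of 8 pairs by 0.176 ± 0.065 (limma adjusted p = 0.754), and Slc25a5, an adenine nucleotide carrier, differed by -0.028 ± 0.047 (limma adjusted p = 0.947). The calcium store list had 0 of 8 calls and a median of -0.038. Itpr2, a calcium release channel, differed by 0.068 ± 0.071 (limma adjusted p = 0.914) and Orai1, a store-operated channel, by -0.122 ± 0.072 (limma adjusted p = 0.843). The paralogs of the 8 genes had 0 of 10 calls and a median of -0.026, and Pdk3 differed by -0.110 ± 0.058 (limma adjusted p = 0.829).

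Across the 16 arrays Me1 and Pdk4 ran together, with a Pearson r of 0.863, and Me1 and Atp2a2 with an r of 0.71. Cpt1a went its own way, at -0.245 with Me1, -0.30 with Pdk4 and -0.188 with Atp2a2. The tested genes most like Me1 in level were Itgb1 (r = 0.967), Denr (0.959) and Capn2 (0.948). Those most like Pdk4 were Mtmr10 (0.943), Anxa1 (0.938) and Klhl26 (0.934). Atp2a2 was most like Ints2 (0.905), Sec23a (0.901) and Slc13a5 (0.887), and Cpt1a most like Trabd2b (0.839), Tmem218 (0.813) and Isg20l2 (0.755). The arrays share 4 cultures and 2 days, so these values describe the arrays and are not tested.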

How the data were processed

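The authors deposited log2 values, 1 for each probe set, and the submitters' processing notes name RMA and Affymetrix Expression Console. RMA corrects background and gives all arrays 1 distribution, so a sample-wide shift cannot be seen, and differences near background are compressed. The software version was not given in the sources used here. Per the labels' protocols each culture, medium and day had 3 wells, and 100 ng of RNA was labelled. Whether wells were pooled is not given there. Values lay between 0.57 and 14.05, with array medians of 3.73 to 3.86.

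Of 41345 probe sets, 23521 had 1 symbol, 1814 several and 16010 none. The brightest probe set of 1 symbol stood for each of 22180 genes, and the 13453 genes whose mean reached 3.905 (the 40th percentile) were tested. Each contrast came from limma 3.58.1 under R 4.3.3 (lmFit, eBayes with an intensity trend, two-sided, Benjamini-Hochberg over all tested genes at 0.05). For thyroxine, both arrays of a genotype, sex and day formed a pair, entered as a fixed block, with 1 effect per genotype and day and 4 residual degrees of freedom. The labels put both media on 1 plate, which gives the pairing. Male minus female deviations of the thyroxine arrays were also correlated across genes with those of the control arrays. The correlation in Twist1+/- cells was 0.393 at 7 days and 0.119 at 3 days, and in wild-type cells 0.721 at 7 days and 0.771 at 3 days. Lasting differences between the female and male cultures enter these values whether or not arrays shared a plate. The values therefore do not check the pairing. For day and genotype 8 group means and sex were fitted, and the culture was a random block (statmod 1.5.0, within-culture correlation 0.202), which left 7 residual degrees of freedom. Both fits were run on simulated data with planted changes, where the pass rule covered only the median estimate. This does not show how often changes as small as those of the 4 genes would be found.

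The genes and lists were chosen with earlier results of these data known. All 8 genes are named. Of each list up to 3 genes past the threshold with the largest change are named, otherwise the higher and the lower gene with the smallest p for thyroxine. For each tested gene the 3 genes of highest Pearson correlation are named, and marker lists are given as counts and means. Motifs were searched as exact letters. Figures were drawn with matplotlib 3.10.9.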

Additional observations from a re-analysis of the deposited data

Results flagged for a closer look

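Cpt1a in the wild-type male pair at 7 days, at 0.44 (thyroxine minus control, log2), lay far from the other 7 pairs, which ran from -0.07 to 0.09. It was the only such pair among 35 groups of pair differences of the 7 genes. A rate of about 1 in 20 groups was taken for chance. The groups of a gene share pairs, so the 1 of 35 is not judged against that rate and is not read as a result.

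In 5 of 42 pairs of pairs set against each other, every pair of one group lay on one side of 0 and every pair of the other on the opposite side. Groups as small as 2 pairs can do so by chance, and the share to expect was not worked out. The count is therefore not read as a result about these genes. For Pdk4 the response at 7 days was lower in both Twist1+/- pairs and higher in both wild-type pairs, a gap of -0.44, and in Twist1+/- cells it was lower at 7 days and higher at 3 days, a gap of -0.595. For Me1 the Twist1+/- and wild-type responses at 7 days were opposite, a gap of -0.435. None of these 3 gaps passed the limma test of the difference (adjusted p of 0.329, 0.446 and 0.230). For Ucp3, below the floor on every array, the Twist1+/- and wild-type responses at 3 days were opposite, a gap of -0.295, as were the 7-day and 3-day responses in wild-type cells, a gap of -0.755. Those 2 differences were not tested.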

How the results depend on the processing

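Over all settings tried, 0 of the 4 metabolic genes were called for thyroxine or genotype in limma, and Me1 alone was called for day. Its call for day was lost with no floor (adjusted p = 0.107), no trend (0.0602) and no random block for the culture (0.116), besides the omissions given above. The number of metabolic genes called for day was then 0, as it was without any 1 control array and without the Twist1+/- arrays at 7 days. It held with array medians set equal, a higher floor and the mean of probe sets (0.0374, 0.0290 and 0.0401) and without the wild-type male culture (0.00978). The number of all genes called moved widely. Over single pairs left out it ran from 0 to 29 over all pairs (13 with every pair), 0 to 232 in Twist1+/- cells (27), 0 to 9 in wild-type cells (2), 0 to 10 at 3 days (0) and 0 to 49 at 7 days (21). For the differences between responses it ran from 0 to 202 for genotype (8) and 0 to 17 for day (1). Over single control arrays left out, day had 181 to 982 genes (1071). Comparisons added after the data were seen had 14 to 351 in Twist1+/- cells at 7 days (103), 11 to 98 for genotype at 7 days (25) and 6 to 56 for day in Twist1+/- cells (16). Without the replicate block, the pairing of thyroxine and control arrays, the counts were 0 over all pairs, in each genotype, at 7 days and for both differences, and 9, 2 and 2 in the added comparisons. No trend gave 0 in those same comparisons and 22, 13 and 5 in the added ones. Leaving out the Twist1+/- arrays at 7 days changes the comparisons themselves. Twist1+/- cells are then read at 3 days alone, and 7 days in wild-type cells alone. The genotype comparisons then hold 3 days only, and the day comparisons wild-type cells only. With this omission 0 genes were called over all remaining pairs, in each genotype, at 7 days, for both differences and for day. Without the wild-type male culture the counts were 1 over all pairs, 0 in wild-type cells, 11 at 7 days, 0 for the genotype difference, 1945 for day and 140 for genotype, and 53 and 7 in Twist1+/- cells and for genotype at 7 days. The mean of probe sets gave 47 in Twist1+/- cells, 5 and 0 for the genotype and day differences and 234, 58 and 36 in the added comparisons. With no floor wild-type cells and the day difference had 0. A higher floor gave 0 for the day difference, equal array medians gave 0 in wild-type cells and 2 for the day difference, and no random block gave 660 for day. Some small differences, none of them called, changed sign. Without the Twist1+/- arrays at 7 days these were, for thyroxine, Me1 over all remaining pairs (0.035) and in Twist1+/- cells at 3 days (0.015). Pdk4 in Twist1+/- cells at 3 days (0.27) and Cpt2 over all remaining pairs (-0.005) did so too. At 7 days, in wild-type cells alone, so did Pdk4 (0.115), Me1 (0.125) and Atp2a2 (0.005). The same omission turned the genotype difference of Pdk4 (0.115), Me1 (0.05) and Atp2a2 (0.015), the day difference of Me1 (0.16) and Atp2a2 (0.02), and Cpt1a between genotypes (-0.08). Without the wild-type male culture these were Pdk4 and Tfb2m over all pairs (-0.006 and 0.02), Me1 in wild-type cells (-0.005), Cpt1a for the day difference (-0.028) and for day (0.008), and Cpt1a and Pdk4 between genotypes (-0.146 and 0.469). With 1 pair left out, Cpt1a ran from -0.012 to 0.058 and Pdk4 from -0.108 to 0.052 in Twist1+/- cells, Cpt1a from -0.01 to 0.06, Me1 from -0.048 to 0.028 and Atp2a2 from -0.062 to 0.048 at 3 days, and Atp2a2 from -0.022 to 0.012 in wild-type cells. Cpt1a ran from -0.222 to 0.008 for the genotype difference and from -0.012 to 0.218 for the day difference. Over all pairs Elovl6 ran from -0.008 to 0.09 and Tfb2m from -0.16 to 0.005. With 1 control array left out, Cpt1a ran from -0.143 to 0.033 for day and from -0.058 to 0.118 for genotype, and Pdk4 from -0.093 to 0.063 for genotype. Klf9 over all pairs was also lost without the replicate block (adjusted p = 0.268) and with no trend (0.119), and Mpc1 with the mean of probe sets (0.143), no floor (0.0648), no trend (0.169), no replicate block (0.419) and without the wild-type male culture (0.124). Of 1048 gene differences computed under alternatives, 922 kept their direction and their side of the threshold, 83 lost a call and 43 changed sign. Apart from the comparisons redefined without the Twist1+/- arrays at 7 days, the cause of these changes was not tested.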
